A study of Mus musculus with 36 samples.

Results

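The genes of the slow muscle fibre described here are Myh7, Myl2, Myl3, Tnni1, Tnnt1, Tnnc1, Tpm3 and Atp2a2. They were chosen by name, as genes of the slow sarcomere and of its calcium pump, with earlier results of these data known. On the array 11 of the 12488 probe sets carried one of these 8 symbols. A filter on dim probe sets left 9 of the 11, with at least 1 for each gene. A probe set is a group of short oligonucleotides on the array that together measure one transcript. RNA had been pooled from 5 male mice of 8 weeks of age for each sample, and taken from the diaphragm, the extensor digitorum longus (EDL), the gastrocnemius (gastroc), the quadriceps, the soleus and the tibialis anterior (TA). These 6 muscles came from 3 kinds of mice, mdx and mdx5cv, which carry different mutations of the dystrophin gene Dmd, and C57BL10 with normal dystrophin, so that 18 groups of 2 samples were labelled. The labels name no treatment, and they give neither the background strain of the mutants nor whether the samples of a group came from separate pools of mice, so the p-values here measure only the spread between these samples. In bulk RNA of a muscle, fewer fibres of a type and less RNA per fibre cannot be told apart.

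Skeletal muscle fibres of the slow type use their own versions of the proteins that make force. The thick filament holds the myosin heavy chain of Myh7 with its regulatory light chain (Myl2) and essential light chain (Myl3), and the thin filament is switched on by calcium through troponin I (Tnni1), troponin T (Tnnt1), troponin C (Tnnc1) and a slow tropomyosin (Tpm3). Atp2a2 encodes the pump that returns calcium to the sarcoplasmic reticulum in slow fibres and in the heart. Fast fibres use the products of other genes for the same tasks, and the mouse soleus is rich in slow fibres, whereas the EDL and TA hold very few. In mdx and mdx5cv mice the fibres lack dystrophin, degenerate and regenerate.

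On the build GRCm38.p6, Myh7 lies at chr14:54970684-54994626, Myl2 at chr5:122092724-122113473, Myl3 at chr9:110763678-110769802, Tnni1 at chr1:135783033-135810989, Tnnt1 at chr7:4504569-4515975, Tnnc1 at chr14:31208312-31211729, Tpm3 at chr3:90072651-90100902 and Atp2a2 at chr5:122453513-122502225. Promoter sequences listed in RefSeq for this build matched 7 of the 8 genes with 11 listed start sites. The 250 bases before the start are printed for 4 genes: Myl3, Tnni1, Tnnt1 and Tnnc1. Myl3 fell in mdx, and Tnnc1 differed most between soleus and fast limb muscles. Tnni1 and Tnnt1 rose in the mutant EDL and TA, though in the TA the other tested probe set of Tnnt1 did not follow. Capitals mark matches, on either strand, to the E-box CANNTG, to the MCAT motif CATTCC and to the motifs known as CArG and MEF2. No match overlapped another.
Myl3 (chr9:110763428-110763677, plus strand): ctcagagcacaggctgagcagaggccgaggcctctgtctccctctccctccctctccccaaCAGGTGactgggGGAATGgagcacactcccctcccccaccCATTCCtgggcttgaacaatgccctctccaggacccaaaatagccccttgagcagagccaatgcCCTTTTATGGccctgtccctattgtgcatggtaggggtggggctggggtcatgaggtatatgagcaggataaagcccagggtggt
Tnni1 (first of 2 listed starts, chr1:135799171-135799420, plus strand): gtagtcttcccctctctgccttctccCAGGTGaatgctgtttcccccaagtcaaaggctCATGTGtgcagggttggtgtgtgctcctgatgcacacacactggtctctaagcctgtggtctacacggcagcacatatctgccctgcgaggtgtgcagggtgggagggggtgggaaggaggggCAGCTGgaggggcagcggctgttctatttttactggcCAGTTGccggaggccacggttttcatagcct
Tnnt1 (chr7:4515976-4516225, minus strand): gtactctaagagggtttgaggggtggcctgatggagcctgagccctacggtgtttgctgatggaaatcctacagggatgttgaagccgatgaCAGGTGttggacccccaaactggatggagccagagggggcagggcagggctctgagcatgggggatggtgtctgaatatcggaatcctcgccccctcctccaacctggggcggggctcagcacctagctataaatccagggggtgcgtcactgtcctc
Tnnc1 (chr14:31208062-31208311, plus strand): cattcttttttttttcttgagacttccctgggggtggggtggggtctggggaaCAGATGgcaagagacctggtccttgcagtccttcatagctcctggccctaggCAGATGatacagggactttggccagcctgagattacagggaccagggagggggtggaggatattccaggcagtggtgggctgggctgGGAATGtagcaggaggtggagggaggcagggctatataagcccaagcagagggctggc
An E-box stood in all 11 listed windows of these genes, as it did in 66.2% of the 32851 windows of the same length in the table. The MCAT motif stood in 3 of the 11 (Myh7, Myl3 and Tnnc1), against 12.6% of all windows. In the Myl3 window both MCAT matches lay between 177 and 144 bases before the start, and the only CArG match of the set, CCTTTTATGG, lay from 85 to 76 bases before it. CArG was found in 1.47% of all windows. MEF2 was found in 2.92% of all windows and in 0 of the 11, which says only that these letters are not in these windows. A match describes the letters and is no evidence of binding.

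Of the 36 deposited columns 34 were used. Sample 2 of the mdx gastroc held the same values at all 12488 probe sets as sample 2 of the mdx quadriceps. Sample 1 of the mdx5cv gastroc likewise equalled sample 1 of that strain's quadriceps, and both gastroc columns were left out. Which muscle these values come from is not settled: the scan record of the mdx quadriceps array names the quadriceps, and that of the mdx5cv quadriceps array names no muscle. The quadriceps and gastroc are therefore also given with these columns counted as gastroc. The column titled mdx EDL sample 1 is described in its labels as RNA of mdx5cv mice, while its title and source name say mdx, and tests in the EDL are given with and without it. Sample 2 of the mdx5cv quadriceps and sample 2 of the C57BL10 TA stood apart, with a median rank correlation with the other arrays of 0.769 and 0.621, where the rest had 0.835 to 0.934. Dmd itself, the mutated gene, had a median signal of 216.5 in mdx (104.2 to 586.5, n = 11) and 301.8 in mdx5cv (158.5 to 518.8, n = 11), against 668.4 in C57BL10 (368.6 to 1928.2, n = 12). The 3′ to 5′ signal ratio of the actin control, a sign of RNA quality, was 1.10 ± 0.34 for mdx arrays and 1.03 ± 0.13 for mdx5cv arrays, against 0.768 ± 0.114 in C57BL10 (SD). That of the GAPDH control was 1.34 ± 0.89 for mdx arrays and 1.10 ± 0.36 for mdx5cv arrays, against 1.04 ± 0.27 in C57BL10, with the highest value, 3.44, on mdx soleus sample 2. Scan times were given for 30 of the 34 arrays, and fits with scanning period or day rest on these 30. C57BL10 diaphragm sample 2, C57BL10 TA sample 2, mdx TA sample 1 and mdx5cv TA sample 2 had none. The times fell into 4 periods. The first held 5 C57BL10 arrays and the second 5 mdx and 4 mdx5cv arrays, so that strain and period are partly tied. Only the third held all strains, with 5 mdx, 6 mdx5cv and 4 C57BL10 arrays.

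All 8 genes had their highest mean signal in the soleus, in C57BL10 as in both mutants. Signal is the array's measure of transcript abundance, on a scale that is set separately for each probe set, so levels of different genes are not compared. In C57BL10 the 8 genes differed between the soleus and the mean of EDL, gastroc, quadriceps and TA by log2 3.39 ± 0.41 (Myl2) to 5.11 ± 0.44 (Tnnc1, ± SE), and all 8 passed limma's test at a Benjamini-Hochberg adjusted p of 0.05. Of all 7453 tested probe sets 1.57% passed in this direction, and the median of the 8 genes was 4.37, beside 0.02 over all tested probe sets. The same contrast in the mutants gave 8 of 8 higher, by 2.62 ± 0.19 (Tnni1) to 4.37 ± 0.32 (Tnnc1), where 1.54% of probe sets passed in this direction.

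The heavy chain gene ordered the muscles in a way that not all 8 genes shared. In C57BL10, Myh7 had a signal of 86377.1 and 134756.7 in the soleus, 21026.8 and 22394.8 in the diaphragm, 13914.0 and 16618.7 in the quadriceps, 15123.4 and 15256.0 in the gastroc, 1826.5 and 2199.7 in the EDL, and 2079.6 and 1695.5 in the TA. The soleus, the diaphragm and the pair of quadriceps and gastroc thus formed separate steps, while quadriceps overlapped gastroc and EDL overlapped TA. Atp2a2, the pump gene, also stepped down, with 49775.0 and 69332.0 in the C57BL10 soleus, 17615.1 and 19910.2 in the diaphragm, and 781.7 and 688.6 in the EDL. Its EDL mean was 1.23% of its soleus mean. Myl2 kept a larger share, with an EDL mean of 6.13% of its soleus mean, and this was the highest share among the 8 genes in C57BL10. Unlike Myh7, Myl2 had C57BL10 EDL arrays (5676.5 to 7051.7) that lay above the TA arrays (1697.9 to 2145.7).

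**Figure D1:**
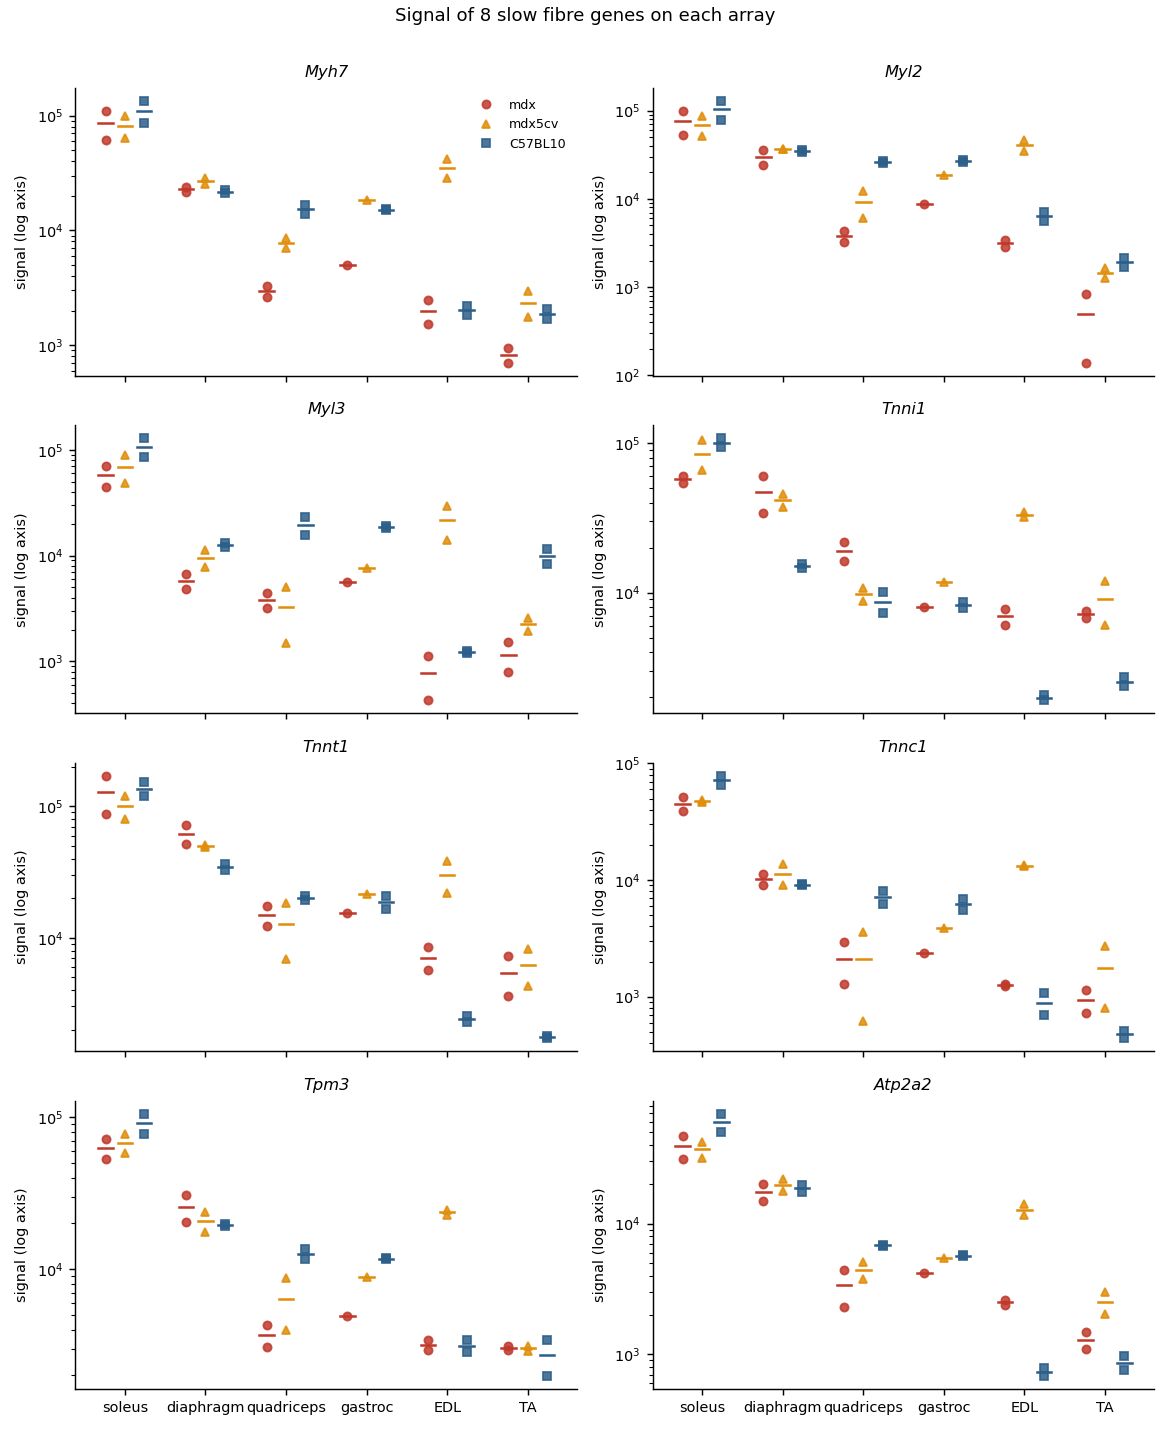
Signal of the 8 slow fibre genes on each of the 34 arrays, on log axes, by muscle; red circles are mdx, orange triangles mdx5cv and blue squares C57BL10, and short bars are group means. In every panel the soleus group means lie highest, and the 2 mdx5cv EDL arrays lie far above the mdx and C57BL10 EDL arrays.

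The diaphragm, a muscle of mixed fibre types, stood between soleus and fast limb muscles for 7 of the 8 genes in C57BL10, with differences from the fast limb muscles of 1.73 ± 0.27 (Tpm3) to 3.07 ± 0.25 (Atp2a2), where 8.24% of all tested probe sets passed as higher. Myl3 was the exception, with 0.66 ± 0.40 (adjusted p = 0.297). Its signal in C57BL10 was 12151.1 and 13263.6 in the diaphragm, against 15541.5 and 23096.7 in the quadriceps and 1192.7 and 1248.0 in the EDL, so diaphragm lay below quadriceps and above EDL. Without C57BL10 diaphragm sample 2 the difference of Myl2 did not pass (1.81, adjusted p = 0.0501). The diaphragm arrays also carried liver transcripts, with a summed signal of 10 liver markers of 350290.9 and 363769.9 in C57BL10, against 872.7 to 51818.5 over the C57BL10 fast limb arrays, and 7 of 7 tested liver markers passed as higher. Their part in the diaphragm values was not tested.

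Averaged over the 6 muscles, the slow genes did not move together in mdx. Against C57BL10, the thick filament genes Myl3 (-1.69 ± 0.21), Myl2 (-1.44 ± 0.22) and Myh7 (-0.92 ± 0.14) fell, as did the tropomyosin gene Tpm3 (-0.50 ± 0.14, adjusted p = 0.0182). Tnni1, the troponin I gene, rose by 0.86 ± 0.14. Tnnt1 (0.50 ± 0.19, adjusted p = 0.0726, and 0.0426 without the arrays that stood apart), Tnnc1 (-0.39 ± 0.24) and Atp2a2 (0.01 ± 0.13) did not pass. Of all tested probe sets 15.9% passed in either direction, and 5.82% passed as lower, beside 4 of the 8 genes. The median difference of the 8 genes was -0.44, beside -0.06 over all tested probe sets. With the scanning period as a block, Tpm3 no longer passed (-0.64, adjusted p = 0.0647), while Myh7, Myl2, Myl3 and Tnni1 did. The third period alone held 15 arrays, with no C57BL10 diaphragm or TA. It was fitted with strain and muscle as separate effects and 7 residual degrees of freedom, so it is not the same average over 6 muscles. In it 0 of the 8 passed in limma, where 2.50% of all probe sets did. The differences were -1.21 for Myl3, -1.28 for Myl2, -0.64 for Myh7, -0.53 for Tpm3 and 0.81 for Tnni1.

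In mdx5cv the averages over 6 muscles ran higher, and 4 genes rose: Tnni1 by 1.28 ± 0.14, Tnnt1 by 0.80 ± 0.19, Atp2a2 by 0.72 ± 0.13 and Myh7 by 0.59 ± 0.14. Of all tested probe sets 14.9% passed in either direction, and 779 of 7453 passed as higher. Myl3 (-0.54 ± 0.21, adjusted p = 0.0969), Tnnc1 (0.39 ± 0.24, and 0.59 with an adjusted p of 0.0346 without the arrays that stood apart), Tpm3 (0.21 ± 0.14) and Myl2 (-0.06 ± 0.22) did not pass. Several of these calls rested on the 2 mdx5cv EDL arrays. Without them, in an average over the other 5 muscles that was chosen after the data were seen, Tnni1 rose (0.73 ± 0.16), Myl3 fell (-1.46 ± 0.23, adjusted p = 8.1e-05), and Myh7 (-0.11), Tnnt1 (0.24) and Atp2a2 (0.04) did not pass. With the scanning period as a block, Tnni1 (1.20) and Atp2a2 (0.69) passed and Myh7 (0.48, adjusted p = 0.0779) and Tnnt1 (0.75, adjusted p = 0.0751) did not. In the third period alone 0 of the 8 passed in limma, and the differences were 0.99 for Tnni1, 0.35 for Tnnt1, 0.59 for Atp2a2 and 0.53 for Myh7. The comparisons of mdx and of mdx5cv share the C57BL10 arrays and are not independent of each other.

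Set directly against mdx, mdx5cv had higher levels of Myh7 (1.51 ± 0.15), Myl2 (1.38 ± 0.23), Myl3 (1.15 ± 0.22), Tpm3 (0.71 ± 0.15) and Atp2a2 (0.71 ± 0.14), 5 of the 8 genes where 0.523% of all tested probe sets passed. Without the mdx5cv EDL arrays Myh7 alone passed, by 0.98 ± 0.16 (adjusted p = 0.00315), and Myl2 had 0.91 ± 0.26 (adjusted p = 0.213). Without the arrays that stood apart Tnnc1 passed too (0.99, adjusted p = 0.00895). Without mdx5cv soleus sample 2, Tpm3 did not pass (0.68, adjusted p = 0.0556). In the third period alone the difference of Myh7 was 1.17 (adjusted p = 0.34). Outside the EDL the difference of Myh7 lay in the gastroc, quadriceps and TA: its signal in the quadriceps was 8609.3 and 6976.5 in mdx5cv against 2637.4 and 3299.3 in mdx, and in the TA 1750.0 and 2939.9 in mdx5cv against 705.4 and 945.9 in mdx. The quadriceps arrays with 8609.3 in mdx5cv and 3299.3 in mdx are the ones that stand in the gastroc columns too. In the soleus the strains overlapped, with 63905.2 and 98176.5 in mdx5cv against 61671.5 and 109019.7 in mdx.

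**Figure D2:**
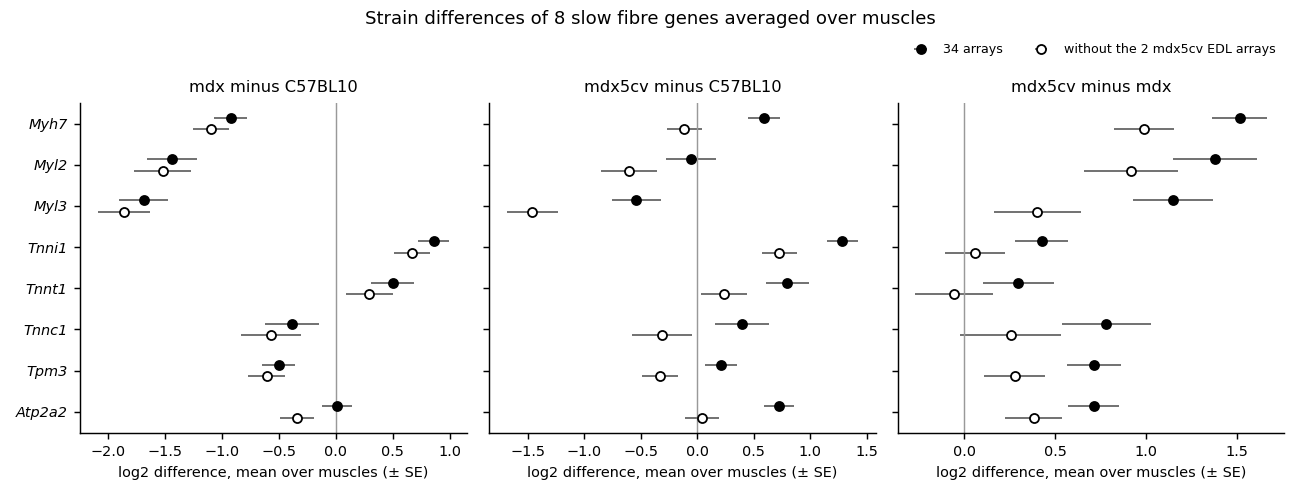
Log2 differences between strains for the 8 genes, averaged over muscles, with bars of ± 1 SE from the limma fit; filled points use 34 arrays and open points leave out the 2 mdx5cv EDL arrays. The open points of mdx5cv minus C57BL10 lie left of the filled ones for all 8 genes, and Myh7 crosses 0.

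Muscle by muscle, most of the slow genes fell in the quadriceps of the mutants. With mdx and mdx5cv pooled, against C57BL10, Myl3 (-2.56 ± 0.43), Myl2 (-2.20 ± 0.45), Tnnc1 (-2.06 ± 0.48), Myh7 (-1.67 ± 0.29) and Tpm3 (-1.44 ± 0.29) fell, 5 of 8 genes where 5.41% of all tested probe sets passed in either direction and 1.49% as lower. The median of the 8 genes was -1.56, beside 0.01 over all tested probe sets. Myl3, the essential light chain, had a quadriceps signal of 3182.7 and 4395.1 in mdx and 5026.0 and 1499.1 in mdx5cv, against 15541.5 and 23096.7 in C57BL10. The regulatory light chain gene Myl2 had 4376.9 and 3250.7 in mdx and 12356.7 and 6100.4 in mdx5cv, against 25516.0 and 27035.8 in C57BL10. For both genes every mutant array lay below both C57BL10 arrays, and this held for 7 of the 8 genes in this muscle, where 12.3% of all tested probe sets did so. The mdx array with 3250.7 and the mdx5cv array with 12356.7 for Myl2 are the ones that stand in the gastroc columns too. Without them the same 5 genes fell, from -3.12 (Myl3) to -1.83 (Myh7), with 1 array left for each mutant, that of mdx5cv being the one that stood apart.

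Tnni1 was the gene that went the other way in the quadriceps, with 16169.0 and 21823.3 in mdx and 10815.5 and 8818.3 in mdx5cv, against 7342.8 and 10075.9 in C57BL10. The mdx arrays lay above C57BL10 and the mdx5cv arrays overlapped it, and the joint difference did not pass (0.66 ± 0.28, adjusted p = 0.208). Troponin C, the calcium sensor of the thin filament, had 2943.8 and 1285.8 in mdx and 3587.9 and 624.4 in mdx5cv, against 6269.1 and 8090.5 in C57BL10. The lowest of these, 624.4, belonged to mdx5cv quadriceps sample 2, which stood apart. Leaving out that array and C57BL10 TA sample 2 left 5 genes past the threshold in the quadriceps, and leaving out other single arrays left 3 to 6: without C57BL10 quadriceps sample 2 neither Tnnc1 (-1.88, adjusted p = 0.168) nor Myl2 (-2.16, adjusted p = 0.0611) passed. Without C57BL10 quadriceps sample 1, Tnnc1 (adjusted p = 0.0663) and Tpm3 (adjusted p = 0.0773) did not, and without mdx quadriceps sample 2, Tnnc1 did not (adjusted p = 0.0518).

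In the gastroc each mutant had 1 array, assumed to vary like the other groups, and 0 of the 8 genes passed in limma, where 2.25% of all tested probe sets did. At an unadjusted p of 0.05, 2 genes passed as lower. These were Myl3 (-1.52 ± 0.50, adjusted p = 0.153) and Tpm3 (-0.83 ± 0.34, adjusted p = 0.337). Myh7 had a gastroc signal of 4992.2 in mdx and 18327.1 in mdx5cv, against 15123.4 and 15256.0 in C57BL10, so the mutants lay on opposite sides of the control. For 5 of the 8 genes both mutant arrays lay below both C57BL10 arrays, where 22.7% of all tested probe sets did so, and for 0 they lay above, where 21.8% did. With the 2 copied columns put back, 2 genes passed. With them counted as gastroc and left out of the quadriceps, an alternative chosen after the data were seen, 3 passed as lower: Myl3 (-1.75), Tnnc1 (-1.27) and Tpm3 (-0.88).

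In the TA, a fast muscle, the members went in both directions. Tnnt1 (1.65 ± 0.38), Tnni1 (1.62 ± 0.28) and Atp2a2 (1.05 ± 0.27) rose in the mutants and Myl3 fell (-2.64 ± 0.43), 4 of 8 genes where 4.32% of all tested probe sets passed. Myl3 had 789.1 and 1512.7 in mdx and 1925.3 and 2592.6 in mdx5cv, against 11528.4 and 8248.8 in C57BL10. Tnni1 had 7565.2 and 6716.4 in mdx and 6051.0 and 12032.1 in mdx5cv, against 2713.7 and 2364.4 in C57BL10. Neither gene's mutant arrays overlapped the C57BL10 arrays. In all, 4 genes lay above C57BL10 without overlap, where 9.66% of all tested probe sets did so, and 2 below, where 9.23% did. The block on scanning period used only arrays with a scan time, which left 1 TA array per strain. That of C57BL10 was scanned in the fourth period, counted with the third. In this fit Myl3 passed, and Tnni1 (1.23), Tnnt1 (1.65) and Atp2a2 (0.99) did not. Effects of the block and of the missing arrays cannot be told apart. Leaving out either C57BL10 TA array, mdx TA sample 1 or mdx5cv TA sample 2 raised the adjusted p of Atp2a2 to between 0.0578 and 0.0984, and leaving out C57BL10 TA sample 2, mdx TA sample 2 or mdx5cv TA sample 2 raised that of Tnnt1 to between 0.0615 and 0.116. The other tested probe set of Tnnt1 did not follow, with a difference of -0.48 ± 0.32, and read 3198.6 on C57BL10 TA sample 2, the array that stood apart, against 1302.5 on sample 1. The C57BL10 TA arrays had a summed liver marker signal of 27716.6 to 51818.5, against 7422.9 to 8684.6 in mdx and 2082.4 to 7240.8 in mdx5cv. In the mutant TA 80 of 7453 tested probe sets passed as lower, among them 4 of 7 tested liver markers. Their part in the TA values was not tested.

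In the diaphragm Tnni1 rose by 1.52 ± 0.28 (adjusted p = 0.00213), the only gene of the 8 to pass, where 2.98% of all tested probe sets did. It had 33866.6 and 59912.3 in mdx and 37485.2 and 45665.2 in mdx5cv, against 15560.7 and 14578.3 in C57BL10, with no overlap. Tnnt1 also lay above without overlap, where 17.8% of all tested probe sets did so, and Myl3 below, where 15% did. Tnni1 did not pass without C57BL10 diaphragm sample 2 (1.47), nor with the scanning period as a block (1.47). C57BL10 diaphragm sample 2 had no scan time, so both fits lacked it. Summed liver marker signal was 337309.6 to 639881.1 in the mdx diaphragm and 189427.1 to 217507.0 in the mdx5cv diaphragm, against 350290.9 to 363769.9 in C57BL10.

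In the soleus 0 of the 8 genes passed in limma, where 1.57% of all tested probe sets did, and all 8 differences were below 0, from -0.79 ± 0.43 (Myl3) to -0.31 ± 0.38 (Tnnt1). At an unadjusted p of 0.05, 1 gene passed (Atp2a2, -0.65 ± 0.27, adjusted p = 0.411). For Tnnc1, Tpm3 and Atp2a2 every mutant array lay below both C57BL10 arrays, where 9.22% of all tested probe sets did so. Tnnc1 had 38967.9 and 51296.3 in mdx and 46297.0 and 48661.4 in mdx5cv, against 65104.9 and 78040.6 in C57BL10. A test of the difference itself set the mutant change in the soleus against that in the 4 fast limb muscles. It passed for Tnni1 (-1.91 ± 0.32, adjusted p = 0.0163), where 0.0671% of all tested probe sets passed. Without the mdx5cv EDL arrays the value was -1.63 (adjusted p = 0.0713). Without C57BL10 soleus sample 1 it was -2.01 (adjusted p = 0.18), without sample 2 -1.81 (adjusted p = 0.438), and without mdx5cv soleus sample 1 -1.74 (adjusted p = 0.0592). The same test for the diaphragm passed for 0 of the 8 genes in limma, where 0.349% of all tested probe sets passed, and at an unadjusted p of 0.05 for 1, Atp2a2 (-0.74 ± 0.31).

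**Figure D3:**
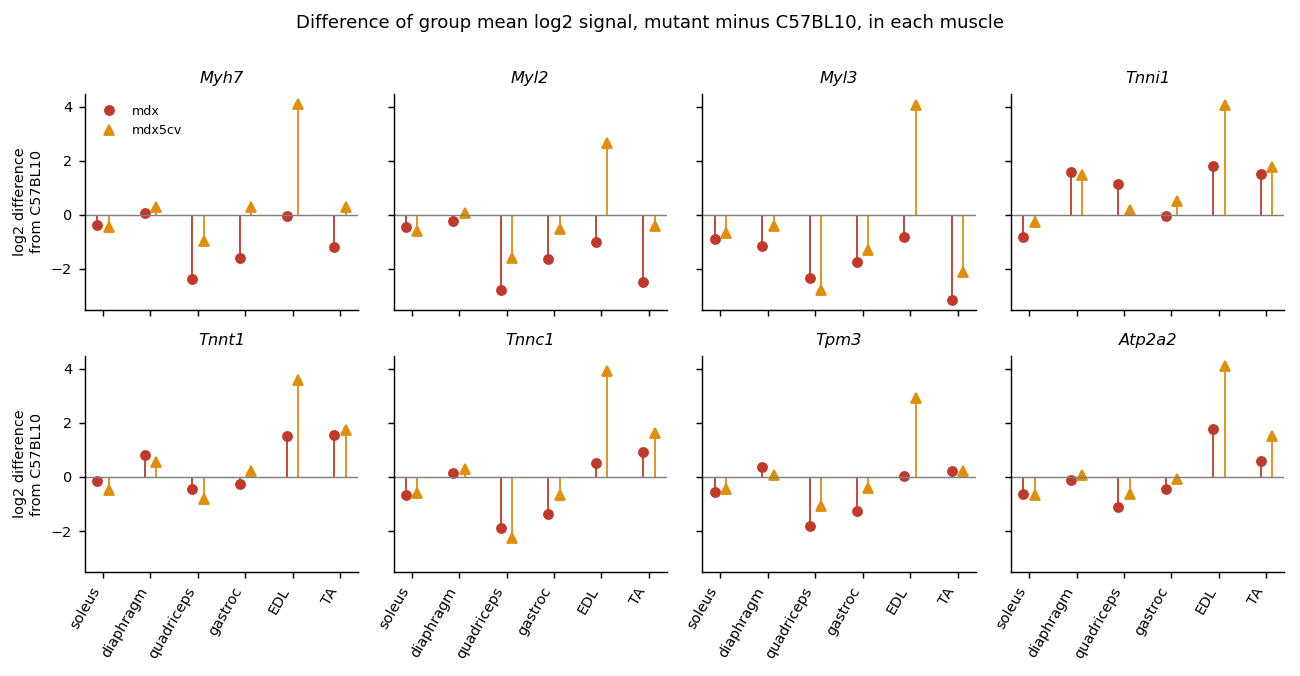
Differences of group mean log2 signal from C57BL10 in each muscle for the 8 genes; red circles are mdx and orange triangles mdx5cv, and lines join each point to 0. Myl3 in mdx lies below 0 in all 6 muscles, and in the EDL the mdx5cv points lie between 2.67 and 4.12 for the 8 genes.

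By muscle, without a test, Myl2 and Myl3 were lower in mdx than in C57BL10 in 6 of 6 muscles, and Myl3 was lower in mdx5cv in 5 of 6, the EDL being the exception. Tnni1 was higher in 4 of 6 muscles in mdx and in 5 of 6 in mdx5cv. The difference of Myh7 in mdx spanned -2.37 in the quadriceps to 0.07 in the diaphragm. Tnnt1, the troponin T gene, was higher in 3 muscles and lower in 3 in mdx, with 1.54 in the TA, 1.52 in the EDL and -0.46 in the quadriceps.

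In the EDL the group means of mdx5cv and mdx lay farther apart than in any of the other 5 muscles for all 8 genes. Myh7 had 28471.9 and 41868.5 in the mdx5cv EDL, against 1529.2 and 2466.5 in the mdx EDL. Myl3 had 14163.4 and 29454.0 in mdx5cv, against 428.8 and 1124.9 in mdx, and Tnnc1 had 13168.6 and 13475.4 in mdx5cv, against 1285.1 and 1225.6 in mdx. For all 8 genes both mdx5cv arrays lay above both mdx arrays, where 23.6% of all tested probe sets did so. The contrast of mdx5cv EDL with mdx EDL was chosen from earlier results of these data, where the mutants differed most in the EDL for several members. Its p-values are therefore not those of a planned test. In limma 7 of the 8 genes passed as higher, where 0.174% of all tested probe sets passed. Their differences ran from 2.27 ± 0.33 (Tnni1) to 4.88 ± 0.50 (Myl3). The eighth, Tnnt1, had 2.07 ± 0.44 (adjusted p = 0.0524), with a signal of 38270.5 and 21986.3 in mdx5cv against 8463.5 and 5665.0 in mdx, while its other tested probe set passed (1.76 ± 0.37, adjusted p = 0.0398).

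Of the 13 probe sets that passed between the mutants in this muscle, 8 belonged to members, covering all 8 genes, and the other 5 to Slc27a1, Prkag1, Spg21, Ankrd2 and Erdr1, which were named after their values were seen. Ankrd2, a stretch-responsive protein found mainly in slow fibres, was higher by 2.62 ± 0.36. Without mdx EDL sample 1, the array with conflicting labels, 7 of the 8 genes still passed, with Myh7 at 3.81, Myl3 at 4.18 and Tnnt1 at 2.36 (adjusted p = 0.182). On mdx EDL sample 1 Myh7 read 1529.2 and Myl3 428.8, below the 2466.5 and 1124.9 of mdx EDL sample 2. Without mdx5cv EDL sample 2, Tnnc1 did not pass (3.39, adjusted p = 0.0608). Sample 1 of both strains was scanned in the second period and sample 2 in the third, so the difference stood within each period: Myh7 had 28471.9 in mdx5cv against 1529.2 in mdx in the second, and 41868.5 in mdx5cv against 2466.5 in mdx in the third.

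The mdx5cv EDL sat among the slow and mixed muscles in the order of the 18 groups, at place 4 for Myh7, Myl2, Myl3 and Tnnc1, 5 for Tpm3, 6 for Tnni1 and 7 for Tnnt1 and Atp2a2. For all 8 genes its 2 arrays lay below both mdx5cv soleus arrays, where 18.7% of all tested probe sets did so, and above both mdx5cv TA arrays, where 19.4% did. The labels name the EDL for both arrays, while the scan records deposited with them name no muscle, and whether the dissected muscle was the EDL was not tested. Its mean was 28.1% (Tnnc1) to 58.7% (Myl2) of the mdx5cv soleus mean. The mdx EDL mean was 1.35% (Myl3) to 12.1% (Tnni1) of its own soleus, and the C57BL10 EDL mean 1.14% (Myl3) to 6.13% (Myl2) of its own. In all 8 genes the share was highest in mdx5cv.

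**Figure D4:**
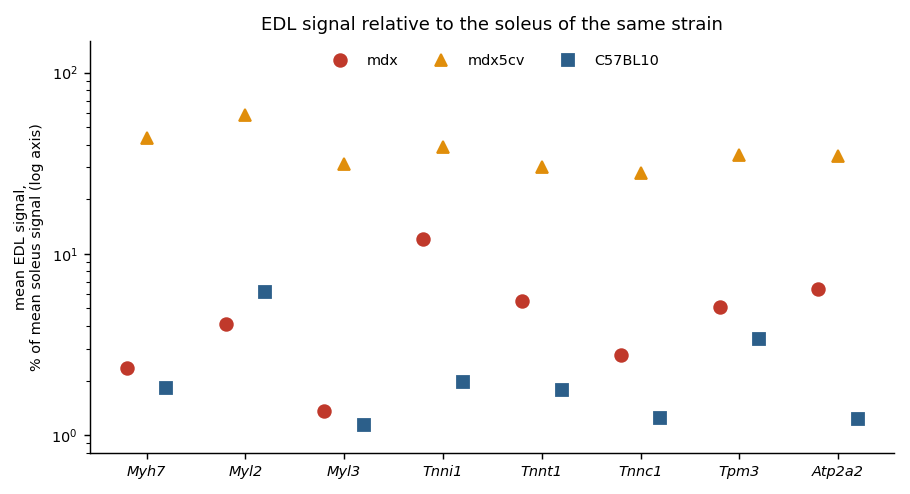
Mean EDL signal as a percent of the mean soleus signal of the same strain, on a log axis, for the 8 genes; red circles are mdx, orange triangles mdx5cv and blue squares C57BL10. The mdx5cv points lie between 28.1% and 58.7%, above both other strains for every gene.

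Genes of the fast fibre were tested in the same contrast. Of 13 tested fast contractile genes 0 passed in limma between the mdx5cv and mdx EDL, where 0.174% of all tested probe sets did, at an unadjusted p of 0.05 also 0, and their median difference was 0.06, beside -0.01 over all tested probe sets. Myh4, a fast myosin heavy chain gene, had 60768.9 to 121773.8 in the mdx5cv EDL, against 77866.7 to 84097.6 in the mdx EDL, and the mdx5cv range enclosed the mdx range. Mylpf, the fast regulatory light chain, differed by 0.20 ± 0.40 and Tnnt3, the fast troponin T, by 0.06 ± 0.51. Neither passed in limma between the C57BL10 soleus and fast limb muscles (Mylpf -0.86, adjusted p = 0.205, and Tnnt3 -0.17, adjusted p = 0.946). Of the tested fast genes only Actn3, Myoz1 and Myh4 passed as lower in that soleus. The other fast genes therefore cannot show whether the mdx5cv EDL resembled a slow muscle, and the count and median of the 13 rest mostly on them. Actn3, Myoz1 and Myh4 were among the 13 that did not pass between the mdx5cv and mdx EDL, and Myh4 differed by 0.09 ± 0.47. Of 15 embryonic and regenerating fibre genes 0 passed in this contrast in limma, with 1 higher at an unadjusted p of 0.05.

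Markers of other tissues were compared on the same arrays. Atp2a2, Myh7, Myl2, Myl3 and Tnnc1 are also expressed in the heart. The summed signal of 12 heart muscle markers was 6830.7 to 7856.4 in the mdx5cv EDL, against 7116.5 to 8278.6 in the mdx EDL and 6990.1 to 8321.1 in the C57BL10 EDL. The brightest of the 12, Gja1, averaged 3099.55 in the mdx5cv EDL, against 4506.25 in the mdx EDL and 3591.9 in the C57BL10 EDL. It made up a large part of each sum, so the sums cannot show whether the other heart markers differed. Of 4 heart markers that were bright enough to test, 0 passed between the mutants in limma, where 0.174% of all tested probe sets did. At an unadjusted p of 0.05 also 0 passed. Of the 12, 4 (Ryr2, Nkx2-5, Corin and Kcnj3) were at or under the floor signal of 117.5 on both mdx5cv EDL arrays, as 4 were on both mdx EDL arrays and 3 on both C57BL10 EDL arrays. Cardiac troponin I, Tnni3, averaged 278 in the mdx5cv EDL, against 145.9 in the mdx EDL and 132.1 in the C57BL10 EDL. Nppb, a natriuretic peptide gene, averaged 292 in the mdx5cv EDL, against 127.4 in the mdx EDL and 289.6 in the C57BL10 EDL. Tnni3 and Nppb were above the floor on both mdx5cv EDL arrays, and in the C57BL10 soleus they averaged 302.7 and 317.6. Of the 12, only Gja1, Myh6 and Kcnj3 had a lower mean in the mdx5cv EDL than in the mdx EDL. Myh6 averaged 138.1 in the mdx5cv EDL, against 148.7 in the mdx EDL and 353.25 in the C57BL10 EDL. Summed erythroid marker signal was 34086.8 to 39898.9 in the mdx5cv EDL, against 73633.5 to 74414.1 in the mdx EDL, and macrophage marker signal 56185.9 to 69418.3 in mdx5cv, against 81608.9 to 86696.3 in mdx. The 3′ to 5′ ratio of GAPDH was 0.910 and 0.819 on the mdx5cv EDL arrays, against 2.74 and 1.06 on the mdx EDL arrays, of which sample 1 had the higher value. The part of these in the slow gene values was not tested.

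With both mutants pooled, 7 of the 8 genes rose in the EDL against C57BL10, by 1.48 ± 0.29 (Tpm3) to 2.94 ± 0.27 (Atp2a2), where 2.27% of all tested probe sets passed as higher. Without mdx EDL sample 1 the same 7 passed, by 1.42 ± 0.32 (Tpm3) to 3.02 ± 0.31 (Tnni1). Without the mdx5cv EDL arrays 2 did, Tnni1 (1.80 ± 0.34) and the pump gene Atp2a2 (1.77 ± 0.32), and Myl3 (-0.81) and Myh7 (-0.046) had the opposite sign. Without C57BL10 EDL sample 1, Tnnc1 (adjusted p = 0.218), Tpm3 (adjusted p = 0.117) and Myl3 (adjusted p = 0.315) did not pass, and Myl3 lost its call in 10 other omissions of 1 array. Tnni1 had 6112.7 and 7802.1 in the mdx EDL and 32055.9 and 34485.8 in the mdx5cv EDL, against 1902.2 and 2062.5 in the C57BL10 EDL. Atp2a2 had 2409.0 and 2589.1 in mdx and 11616.0 and 14016.1 in mdx5cv, against 781.7 and 688.6 in C57BL10. For both genes, as for Tnnt1 and Tnnc1, every mdx5cv array lay above every mdx array and every mdx array above every C57BL10 array, 4 of 8 genes where 2.15% of all tested probe sets were ordered this way. For Myl2 they ran in another order, with 3412.2 and 2843.9 in mdx and 34801.5 and 46555.8 in mdx5cv, against 7051.7 and 5676.5 in C57BL10, so mdx lay lowest. In 4 of the 8 genes all mutant EDL arrays lay above both C57BL10 arrays, where 13.4% of all tested probe sets did so.

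Whether the mutants differed more in the EDL than in the other 5 muscles was tested by a contrast that was added after the data were seen. It passed for 6 of the 8 genes, from 1.97 ± 0.35 (Atp2a2) to 4.48 ± 0.56 (Myl3), where 0.107% of all tested probe sets passed. Myl2 (2.78 ± 0.58, adjusted p = 0.0523) and Tnnt1 (2.12 ± 0.49, adjusted p = 0.0791) did not. Without mdx EDL sample 1, Myh7, Myl3 and Tpm3 passed (adjusted p = 0.00864 each), and Tnni1 (adjusted p = 0.14), Tnnc1 (adjusted p = 0.229) and Atp2a2 (adjusted p = 0.163) did not. Without mdx5cv EDL sample 2 the same 3 genes missed the threshold (adjusted p = 0.1, 0.222 and 0.204), and Tnnc1 also missed it without any one of 4 other arrays.

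The 8 genes followed each other across the 18 group means. Pearson's r over the 28 pairs ran from 0.69 to 0.98, with a median of 0.90, and over the 15 groups without soleus from 0.39 to 0.97, with a median of 0.87. These points share arrays and are given as a description. With Myh7 the closest members were Tpm3 (r = 0.97), Tnnc1 (0.96), Myl2 (0.96) and Atp2a2 (0.95), and the least close were Myl3 (0.88) and Tnni1 (0.84). Among 1826 genes whose group means had an SD of at least 0.5 on the log2 scale, the 6 non-members most like Myh7 were Pdlim1 (0.89), Nnt (0.88), Idh2 (0.84), Gsto1 (0.80), Ldhb (0.79) and Csrp3 (0.78). Ldhb is the lactate dehydrogenase subunit of oxidative tissues, Idh2 and Nnt are mitochondrial enzymes, and Csrp3 encodes the muscle LIM protein. The least alike were Dapk3 (-0.76), Enoph1 (-0.71) and Gpd2 (-0.67). Without the mdx5cv EDL the values of Nnt (0.90) and Ldhb (0.84) were higher, and without soleus that of Csrp3 was 0.56.

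The order of the 18 groups was resolved only in part for each gene. Of 17 neighbouring pairs of groups in the order of means, the arrays did not overlap in 6 (Tpm3) to 9 (Tnni1 and Atp2a2). C57BL10 soleus stood first for all 8 genes, and for Tnnc1, Tpm3 and Atp2a2 its arrays did not overlap those of the next group. The last place was held by the mdx TA for Myh7 and Myl2, by the mdx EDL for Myl3, by the C57BL10 EDL for Tnni1 and Atp2a2, and by the C57BL10 TA for Tnnt1, Tnnc1 and Tpm3. In mdx TA sample 1, Myl2 read 139.8, close to the floor, against 842.1 on sample 2.

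Other genes of the slow fibre were listed as well. Of 11 tested, 3 were higher in the C57BL10 soleus than in fast limb muscles, where 1.57% of all tested probe sets were. These were Ankrd2 (2.85 ± 0.29), Csrp3 (2.84 ± 0.37) and Fabp3 (1.56 ± 0.29), the last encoding a fatty acid carrier. In mdx 0 of these 11 rose and 2 fell, where 15.9% of all tested probe sets passed in either direction and 5.82% as lower: Ankrd2 (-1.09 ± 0.15) and myoglobin, Mb (-0.52 ± 0.17). In mdx5cv 0 rose and 3 fell, where 14.9% passed in either direction and 333 of 7453 tested probe sets passed as lower. Those that fell were Mb (-0.91 ± 0.17), Ankrd2 (-0.65 ± 0.15) and Fabp3 (-0.60 ± 0.16). The median of the 11 was -0.37 in mdx and -0.10 in mdx5cv, beside -0.06 and 0.02 over all tested probe sets.

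Of 13 fast contractile genes, 3 were lower in the C57BL10 soleus than in fast limb muscles, where 93 of 7453 tested probe sets were. These were Actn3 (-2.81 ± 0.35), the fast alpha-actinin, Myoz1 (-1.36 ± 0.29) and Myh4 (-1.36 ± 0.38). In mdx 0 of the 13 passed in limma, where 15.9% of all tested probe sets did, with 3 higher at an unadjusted p of 0.05. In mdx5cv 1 rose, Tpm1 (0.46 ± 0.14), where 779 of 7453 tested probe sets rose. Among 18 tested regulators of the slow programme, Rcan1, a target and inhibitor of calcineurin, rose in mdx (0.57 ± 0.15) and in mdx5cv (0.59 ± 0.15) and was higher in the C57BL10 soleus (1.58 ± 0.27). Esrra, a nuclear receptor of oxidative metabolism, fell in mdx (-0.70 ± 0.20). Sox6, a repressor of slow genes in fast fibres, was lower in the C57BL10 soleus (-1.74 ± 0.41). Of the 18 regulators only Rcan1 and Esrra passed in mdx, where 15.9% of all tested probe sets passed in either direction. In mdx5cv only Rcan1 passed, where 14.9% did. In the C57BL10 soleus only Rcan1 and Sox6 passed, where 2.82% did. Of 7453 tested probe sets 748 rose in mdx and 779 in mdx5cv. Of 15 embryonic and regenerating fibre genes 13 rose in mdx and 13 in mdx5cv. Among these were Myl4 (3.46 ± 0.18 in mdx) and Myh3, the embryonic myosin heavy chain (3.44 ± 0.20 in mdx5cv). Macrophage markers rose in 15 of 15 tested genes in both mutants, and fibroblast markers in 9 of 10. The part of these cells in the lower values of the slow genes was not tested.

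Probe sets of 1 gene did not always give the same answer. The other Tnnt1 probe set differed by -0.11 ± 0.16 in mdx over 6 muscles, against 0.50 ± 0.19 for the one used, and by 0.08 ± 0.32 in the quadriceps, against -0.65 ± 0.38. Neither pair passed. A second Myh7 probe set was too dim to test and read 974.7 and 2053.3 in the C57BL10 soleus and, with overlap, 103.6 and 346.8 in the mdx5cv EDL against 140.3 and 85.4 in the mdx EDL. The second Tpm3 probe set, also too dim, read 68.0 and 137.7 in the C57BL10 soleus and did not show the soleus pattern. Both Myh7 probe sets are of a type whose oligonucleotides match a family of similar sequences, and those used for Tnnt1 and Atp2a2 may match several transcripts, so related genes may add to these signals.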

How the data were processed

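The authors deposited 1 signal intensity per probe set and array of Affymetrix MG_U74Av2 arrays, scaled by them to a common trimmed mean near 1500, as the values show; which signal algorithm they used is not stated in the labels or file headers. The labels give each array's strain, muscle and sample number. Intensities under the floor of 117.5 (the 20th percentile of the table) were raised to that value before log2 was taken. Control probe sets and the dimmest 40% by mean were left out, and 7453 probe sets were fitted with limma 3.58.1 (R 4.3.3) over 18 groups of 34 arrays, with 16 residual degrees of freedom. Tests were two-sided, with Benjamini-Hochberg adjustment over all tested probe sets and a threshold of 0.05. The fit was tested on simulated data. A gene was represented by its brightest probe set. The precision is limited by the number of arrays.

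All 8 members were named, with their fast counterparts. Of each other list at most 3 genes past the threshold with the largest difference were named in each comparison. The heart muscle markers named in the EDL fell outside this rule and were named with their values seen. Likeness was Pearson's r with Myh7 over the 18 group means. Members and lists were chosen with earlier results of these data known. Alternatives were quantile normalization, no filter, a floor at the 5th percentile, sample number, scanning period or scanning day as a block, the third scanning period alone, all 36 columns, no arrays that stood apart, and each array left out in turn. Fits with scanning period or day used the 30 arrays with a scan time, and the period block counted the fourth period with the third. The third period alone was fitted with strain and muscle as separate effects. Leaving out the mdx5cv EDL arrays and counting the copied columns as gastroc were added after seeing the data. So was the contrast of the EDL with the other 5 muscles. The contrast of the mdx5cv EDL with the mdx EDL was chosen from earlier results of these data. Python 3.11.15, pandas 2.3.3 and matplotlib 3.10.9 made tables and figures.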

Additional observations from a re-analysis of the deposited data

Results flagged for a closer look

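The mutant change of Tnni1 in the soleus differed from its change in the 4 fast limb muscles by -1.91 on the log2 scale, by limma's test of the difference itself. The difference between mdx5cv and mdx in the EDL exceeded that in the other 5 muscles by 4.48 for Myl3, 3.17 for Myh7, 3.15 for Tnnc1, 2.62 for Tpm3, 2.21 for Tnni1 and 1.97 for Atp2a2, also by a test of the difference itself, in a contrast added after the data were seen. Both mdx5cv EDL arrays carried the higher signal for these genes. That these arrays hold EDL rests on their labels and was not tested.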

How the results depend on the processing

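The numbers of the 8 genes past the threshold stayed within 1.5 times the reported ones except as follows. With the scanning period as a block, 2 passed in mdx5cv against C57BL10, 0 in the diaphragm and 1 in the TA. With the scanning day as a random block, 3 passed between mdx5cv and mdx, 1 in the TA and 2 for the mutant change in the soleus against that in the fast limb muscles. In the third scanning period alone 0 passed in mdx, in mdx5cv and between mdx5cv and mdx. With all 36 columns 2 passed in the gastroc, and with the copied columns counted as gastroc, also chosen after seeing the data, 3 did. Without the arrays that stood apart 2 passed for the mutant change in the soleus against that in the fast limb muscles. Without the mdx5cv EDL arrays, an alternative chosen after seeing the data, 2 passed in mdx5cv, 1 between mdx5cv and mdx, 2 in the EDL and 0 for the mutant change in the soleus against that in the fast limb muscles. There Myh7 turned to -0.11 in mdx5cv and to -0.046 in the EDL, and Myl3 to -0.81 in the EDL. The causes of the other shifts were not tested. The fits with scanning period or day used only the 30 arrays with a scan time. These included 1 TA array of each strain and 1 C57BL10 diaphragm array.

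Leaving out 1 of 32 arrays at a time gave 5 to 6 genes in mdx, 4 to 5 in mdx5cv, 4 to 6 between mdx5cv and mdx, 0 to 1 in the diaphragm, 4 to 7 in the EDL, 3 to 6 in the quadriceps, 2 to 5 in the TA and 0 in the gastroc and soleus. It gave 6 to 8 between the mdx5cv EDL and mdx EDL, 8 for soleus against fast limb muscles in C57BL10 and in the mutants, 6 to 7 for the C57BL10 diaphragm, 0 to 1 and 0 for the mutant change in the soleus and in the diaphragm set against that in the fast limb muscles, and 3 to 8 for the EDL against the other muscles. The labels do not say that a sample number marks a shared batch, but in all 12 groups with both scan periods known samples 1 and 2 were scanned in different periods, in 8 of them the second and the third. Over 120 pairs of 16 groups, deviations of same-numbered samples had r of -0.36 to 0.62 (median 0.05), and 47 pairs lay above 0.1, so the numbers were not taken to pair the samples. With the sample number as a replicate block 8 genes passed between the mdx5cv EDL and mdx EDL and 7 for the EDL against the other muscles, and the other counts were as reported: 5 in mdx, 4 in mdx5cv, 5 between the mutants, 1 in the diaphragm, 7 in the EDL, 0 in the gastroc, 5 in the quadriceps, 0 in the soleus and 4 in the TA. The small number of arrays limits what could be detected, most of all in the gastroc.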
